A study of Mus musculus with 6 samples.

Results

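The genes described here carry excitation-contraction coupling and calcium handling in muscle: the ryanodine receptor Ryr1, the voltage sensor subunits Cacna1s, Cacnb1 and Cacng1, the triad protein Jph2, the calcium-binding store proteins Casq1 and Casq2, the calcium pumps Atp2a1 and Atp2a2, and the pump inhibitor Sln. They were chosen by name, as every probe set whose single annotated symbol was one of these 10 genes. All 10 were found among the 12393 genes with such a probe set on the array, and together they had 16 of its 22626 probe sets (control probe sets of the array aside). A filter on dim probe sets, described with the results, kept 13 of the 16 and 9 of the 10 genes, and the gene left below it was Sln.

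In skeletal muscle an action potential enters the cell along the transverse tubules and moves the voltage sensor, an L-type calcium channel whose pore subunit is Cacna1s. The sensor opens Ryr1 in the facing membrane of the sarcoplasmic reticulum, and the calcium that leaves the store makes the myofibrils contract. The pumps of the SERCA family then return the calcium to the store, where calsequestrin binds it. The sarcoplasmic reticulum is a specialised form of the endoplasmic reticulum, and Atp2a2 also serves that compartment in cells other than muscle.

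The cells were C2C12, an established mouse myoblast line that fuses into contracting myotubes when serum is withdrawn. All samples grew in medium with 20% fetal bovine serum until confluent, and then spent 5 days in 2% horse serum to differentiate. One group of 3 samples then received 500 µM palmitate, a saturated fatty acid, for 16 h, and the other group of 3 samples received 1% bovine serum albumin (BSA), the carrier, for the same time. Each sample was read on its own Affymetrix mouse 430A 2.0 array. Replicates are numbered in the labels with nothing on whether they were separate cultures, so the p-values reflect how far these 6 arrays scatter, which may be technical scatter alone, and precision is limited by their number.

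Checked against its markers, the labelled cell type was present: all 8 myotube markers lay above the filter, with Acta1 between 34426 and 49212 and the differentiation factor Myog between 16098 and 25800. None of the 8 passed the test between the groups, where 1 had an unadjusted p under 0.05 (limma). Of the markers of other cells, all 4 endothelial and all 3 adipocyte markers on the array lay below the filter. Markers of proliferation fell in 4 of 4 cases, with a summed signal of 19653 to 23845 with BSA and 9628.5 to 10083 with palmitate. Fibroblast-type markers fell in 4 of 4 tested cases, with 2 more below the filter (sums of 62431 to 76988.5 and 15629 to 20724). Of 4 tested myoblast or satellite cell markers 1 fell, Vcam1, with list sums of 15617.5 to 16751 and 11494 to 14520. Macrophage markers had sums of 1181 to 1567 and 1726 to 2042. Of the 2 tested, 1 was higher and 1 lower with palmitate, neither passing, and 4 more lay below the filter. For comparison, 20.2% of all genes tested passed, 12.3% lower and 7.92% higher (limma adjusted p under 0.05). The log2 ratio of 3' to 5' signal of Gapdh, a sign of RNA quality, was 0.27 ± 0.073 with BSA and 0.068 ± 0.24 with palmitate (SD, n = 3, exact permutation p = 0.2, two-sided). The part of these differences in the results below was not tested. These markers do not show which cells expressed them, and in bulk RNA fewer cells of a type and less RNA per cell cannot be told apart.

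BSA replicate 1 stood apart in muscle genes. It was the highest of the 3 BSA arrays for 7 of the 9 members tested and for 30 of 35 genes of a sarcomere list, against 40.7% of all genes tested. Its log2 signal exceeded the mean of the other BSA arrays by a median of 0.76 over the 9 members and 0.68 over the sarcomere genes, against 0.036 over all genes. The results below are therefore also given without this array where it matters. The summed signals of the lists by array show this array above every other for the members, the sarcomere and the myotube markers, but not for proliferation.

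**Figure D1:**
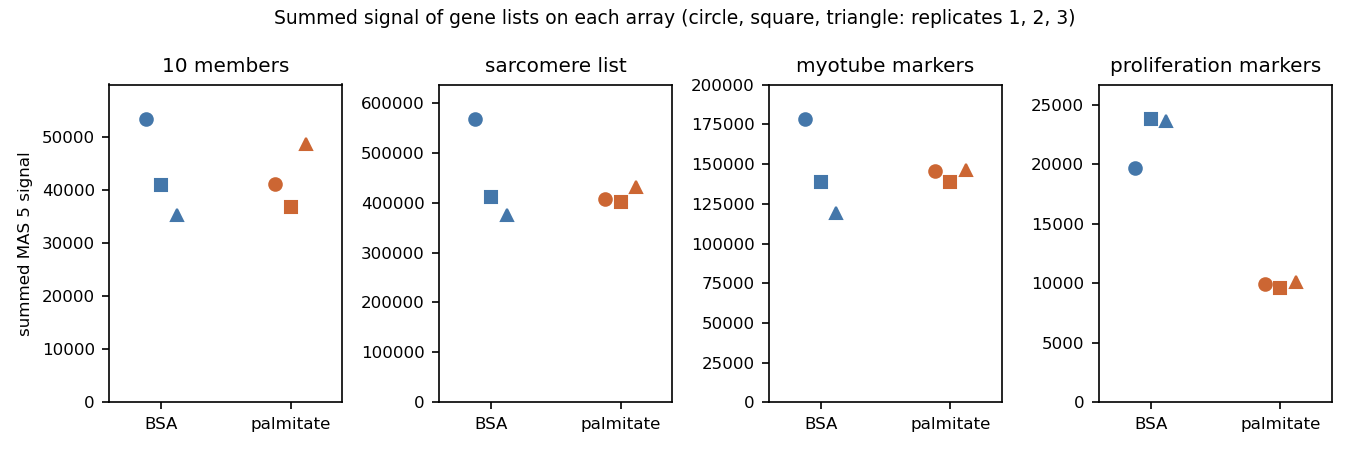
Summed MAS 5 signal (linear scale) of the brightest probe set of each gene in 4 lists, by array and group. For the members, BSA replicate 1 lies at 53459 and the other 5 arrays between 35303 and 48650, while for the proliferation markers all palmitate arrays lie below all BSA arrays.

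Most of these genes did not differ between palmitate and BSA beyond the spread of the arrays. Of the 9 genes tested, each by its brightest probe set, 1 passed the threshold of a limma adjusted p of 0.05, and it was lower with palmitate. That was Atp2a1, the pump SERCA1, at 1.51-fold lower. Of all 7931 genes tested, 20.2% passed, 12.3% lower and 7.92% higher, so the share among the members (1 of 9) was not above that of all genes. Likewise 1 of 9 had groups that did not overlap, against 38.3% of all genes. The members' median log2 fold change was 0.015, against -0.051 for all genes. Counted by probe set, 2 of 13 passed, against 19.2% of all 13575. One was lower, against 10.6%, and one higher, against 8.63%, the latter belonging to Atp2a2, the pump SERCA2, at 1.95-fold. Groups that did not overlap were seen for 3 of the 13, against 37.2%.

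**Figure D2:**
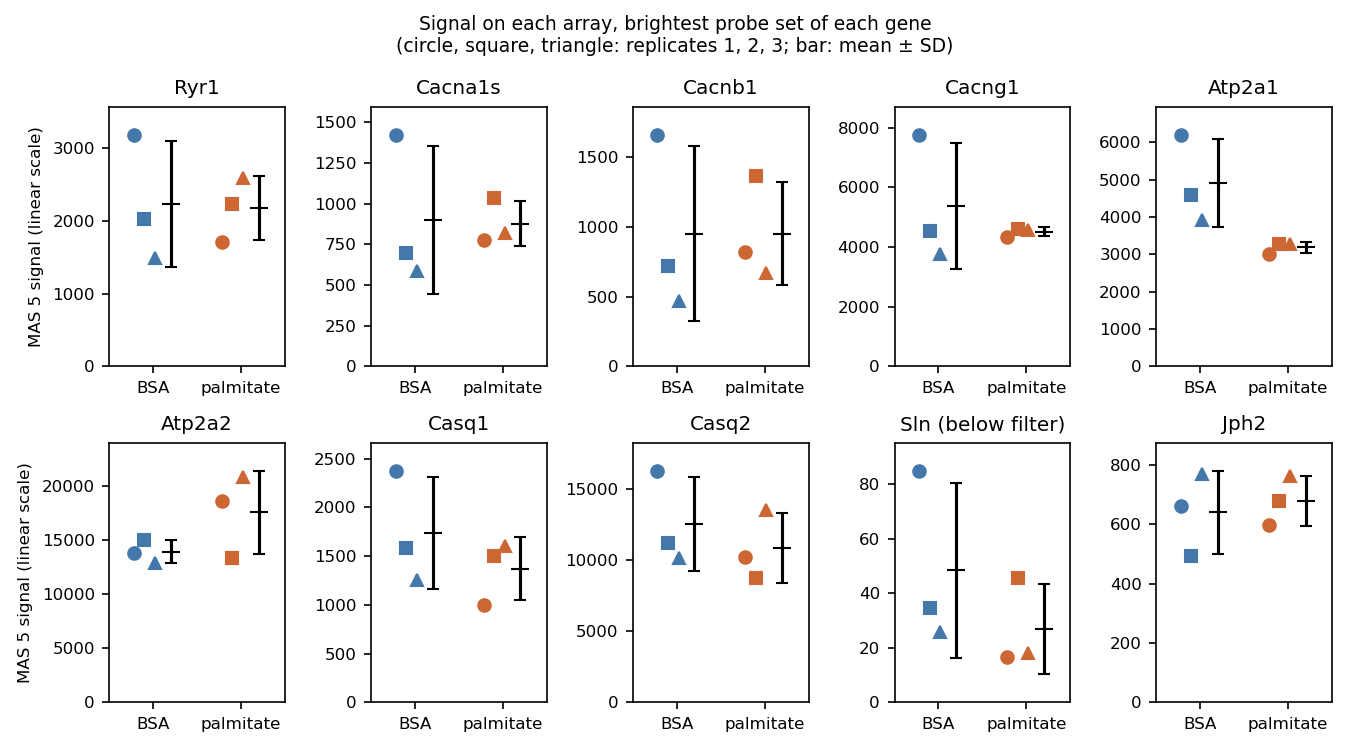
MAS 5 signal (linear scale, from 0) of the brightest probe set of each of the 10 genes on each array, with the mean ± SD of the 3 arrays of a group beside the points. Atp2a1 is the one gene whose palmitate arrays (3009.9 to 3273) all lie below its BSA arrays (3912 to 6197.5), and the circles of BSA replicate 1 lead the BSA group in most panels.

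The calcium release channel showed no difference that passed the test. Ryr1 had signals of 3186, 2022 and 1488.5 on the 3 BSA arrays and of 1715, 2230 and 2590 on the palmitate arrays (replicates 1, 2 and 3 in this order, here and for the other genes). The groups overlapped throughout, and the spread within the BSA group was wider than the distance between the group means. The log2 fold change, palmitate over BSA, was 0.015 ± 0.26 (SE from limma, n = 3 per group, adjusted p = 0.977), and the 95% interval of the fold ran from 0.681 to 1.50. Jph2, a junctophilin that holds the store membrane close to the transverse tubule, had signals of 660.0, 491.5 and 769 with BSA and 596, 678 and 763 with palmitate. Its groups overlapped as well (log2 fold change 0.10 ± 0.26, adjusted p = 0.827).

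None of the voltage sensor subunits passed. Cacna1s, the pore and sensor subunit, had signals of 1422.5, 697 and 585 with BSA and 773.5, 1033 and 819 with palmitate, so that BSA replicate 1 was above every palmitate array and the other BSA arrays were below them. Its log2 fold change was 0.058 ± 0.31 (adjusted p = 0.921). Cacng1, the skeletal gamma subunit, had signals of 7762, 4541 and 3781.5 with BSA and 4337, 4619 and 4573 with palmitate. The palmitate arrays of Cacng1 lay close together, while BSA replicate 1 lay above them, BSA replicate 2 among them and BSA replicate 3 below. The log2 fold change was -0.18 ± 0.23 (adjusted p = 0.626), and it was 0.12 without BSA replicate 1.

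Cacnb1, the beta subunit that brings the channel to the membrane, had 3 probe sets. On the brightest, 1426108_s_at, the signals were 1661, 717 and 472 with BSA and 819, 1367 and 668 with palmitate, and the log2 fold change was 0.14 ± 0.41 (adjusted p = 0.852). On 1425777_at it was 0.38 ± 0.35 (adjusted p = 0.492), also with overlapping groups. The remaining probe set, 1451834_at, lay below the filter, at 78.0, 19.5 and 22.3 with BSA and 151.5, 299 and 93.7 with palmitate. Its palmitate arrays were all above its BSA arrays, but in a fit without the filter it did not pass (adjusted p = 0.153), and such low signals carry little information on size.

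The store proteins were bright and did not pass either. Casq1, the calsequestrin of fast skeletal fibres, had signals of 2374, 1578 and 1252 with BSA and 1001, 1496.5 and 1608 with palmitate. Its groups overlapped, and its log2 fold change was -0.32 ± 0.26 (adjusted p = 0.434). Casq2, the calsequestrin of the heart and of slow fibres, had signals of 16255, 11156 and 10116 with BSA and 10203, 8719.7 and 13530 with palmitate. The highest and the lowest of these 6 arrays came from different groups, with the others mixed between them (log2 fold change -0.20 ± 0.20, adjusted p = 0.529). Without BSA replicate 1 the value was 0.0019 for Casq2 and -0.068 for Casq1. The log2 ratio of Casq1 to Casq2 on the same array, which does not depend on how the arrays were scaled, was -2.87 ± 0.13 with BSA and -2.99 ± 0.41 with palmitate (SD, n = 3, exact permutation p = 0.6, two-sided).

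For the 8 genes tested that did not pass, the 95% interval of the fold ran down to between 0.540 (Casq1) and 0.967 (Atp2a2) and up to between 1.18 (Casq2) and 2.04 (Cacnb1). On these brightest probe sets a change of 2-fold lay outside the interval for each of them but Cacnb1. That does not hold for the other probe sets of Atp2a2, 2 of which had intervals reaching past 2-fold, as given below, nor for 1425777_at of Cacnb1 (up to 2.19). Sln, the sarcolipin that inhibits SERCA pumps, could not be judged. Its 2 probe sets had signals of 16.8 to 85.0 and of 6.5 to 149.9 over the 6 arrays, all below the filter signal of 267.1, with overlapping groups.

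The calls among the members were in the pumps. Atp2a1 encodes SERCA1, the pump of fast skeletal fibres. Its signals were 6197.5, 4583 and 3912 with BSA and 3009.9, 3265 and 3273 with palmitate. Every palmitate array lay below every BSA array, as was so for 22.4% of all genes tested, and the mean signal was 4898 ± 1175 with BSA and 3183 ± 150 with palmitate (SD, n = 3). The log2 fold change was -0.60 ± 0.18 (limma adjusted p = 0.0375). This call was close to its threshold. It ended on leaving out any single array but BSA replicate 3, with adjusted p = 0.0616 to 0.106, and the value without BSA replicate 1 was -0.41.

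The promoter of Atp2a1 is shown because this is the gene of the set that passed as lower, and that of Casq1 because it belongs to the same fibre type and did not pass. Both are RefSeq windows of mouse build GRCm38.p6, from 250 bases before to 50 after the start of the gene, read 5′ to 3′ on the gene's own strand (minus for both), at chr7:126463024-126463323 for Atp2a1 and chr1:172219846-172220145 for Casq1. Capitals mark CAGCTG, a form of the E-box that myogenic factors such as MyoD bind.
Atp2a1: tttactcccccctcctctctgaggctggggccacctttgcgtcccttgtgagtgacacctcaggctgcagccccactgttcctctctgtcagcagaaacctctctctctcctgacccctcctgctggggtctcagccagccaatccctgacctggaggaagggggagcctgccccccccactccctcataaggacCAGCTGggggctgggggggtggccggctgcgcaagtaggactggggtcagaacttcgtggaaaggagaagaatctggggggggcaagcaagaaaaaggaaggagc
Casq1: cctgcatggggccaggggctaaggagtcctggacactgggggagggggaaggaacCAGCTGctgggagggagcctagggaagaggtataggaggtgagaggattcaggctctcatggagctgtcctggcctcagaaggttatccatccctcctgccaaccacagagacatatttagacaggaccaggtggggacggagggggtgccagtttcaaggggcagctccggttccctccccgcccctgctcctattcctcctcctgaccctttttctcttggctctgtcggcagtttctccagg

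Promoter windows were matched for 7 of the 10 genes, and those of Atp2a2, Cacng1 and Sln were not. On either strand, CAGCTG was found in those of 4 genes (Atp2a1, Cacna1s, Casq1 and Jph2), against 18.3% of all 27025 genes with a window, and the wider E-box CANNTG, which includes it, in those of 6, against 75%. A gene was counted once, whichever of its windows held the motif (9 windows for the 7 genes). The MEF2 site was found in 1 (Casq2, against 3.70%), the CArG box in 0 (against 1.81%) and the ER stress element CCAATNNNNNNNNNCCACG in 0 (against 0.137%). The end of that element, CCACG, was found in 4 (against 35.5%). Of the 4 genes with CAGCTG, Atp2a1 was lower with palmitate and Casq1, Cacna1s and Jph2 did not pass. With only 1 gene called, any link of the motif with a call was not tested.

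Atp2a2 encodes SERCA2, the pump of slow fibres and the heart and, in another splice form, of the endoplasmic reticulum in general. Its 4 probe sets all had log2 fold changes above 0 but differed in size. On 1427250_at the signals were 8119, 9692 and 9682 with BSA and 17542, 16116 and 20070.5 with palmitate. The lowest palmitate array was well above the highest BSA array, and the groups did not overlap. The log2 fold change on this probe set was 0.97 ± 0.14 (limma adjusted p = 0.000593), or 1.95-fold with a 95% interval of 1.58 to 2.41, and it passed on leaving out any of the 6 arrays, with 0.88 to 1.04.

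The other 3 probe sets of Atp2a2 did not pass on the deposited scale. On the brightest, 1416551_at, which stands for the gene in the counts, the signals were 13856, 15034 and 12901 with BSA and 18576, 13318 and 20808 with palmitate. Palmitate replicates 1 and 3 were above the BSA arrays here, and palmitate replicate 2 was among them. The log2 fold change was 0.31 ± 0.17 (adjusted p = 0.216), and without palmitate replicate 2 it was 0.50 and passed (adjusted p = 0.0325). On 1452363_a_at it was 0.33 ± 0.18 (adjusted p = 0.216). On 1427251_at, a dimmer one, the signals were 714, 698 and 865 with BSA and 1045, 1565 and 1086 with palmitate. Those groups did not overlap, and the log2 fold change was 0.68 ± 0.23 (adjusted p = 0.0580), with a 95% interval of 1.13 to 2.27 for the fold. It passed after quantile normalization (0.74, adjusted p = 0.0347) and with arrays scaled to equal median (0.71, adjusted p = 0.0408), but not on leaving out any single array. Markers of heart muscle, another tissue of this pump, were dim, with 5 of 7 below the filter, where signals carry little information on size. Their log2 fold changes were above 0 in 7 of 7, with those of the 5 dim ones taken from a fit without the filter. Of all 7931 genes above the filter, 3644 were above 0, a set that holds only 2 of the 7 markers. The shared direction is also limited to the markers chosen. Pln, a SERCA inhibitor of the heart and slow fibres outside this marker list and also below the filter, was at -1.42 ± 0.92. The sums of these markers were 1140 to 1685 with BSA and 1997 to 3271 with palmitate. Of the 2 tested, 1 passed as higher, against 7.92% of all genes. The part of these markers in the Atp2a2 values was not tested.

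Averaged over its 4 probe sets, Atp2a2 passed at a log2 fold change of 0.57 (adjusted p = 0.00729). The probe sets were set against each other on the same array after their values had been seen. The log2 ratio of 1427250_at to 1416551_at was -0.61 ± 0.18 with BSA and 0.047 ± 0.20 with palmitate (SD, n = 3, exact permutation p = 0.1, two-sided, the smallest that 3 against 3 allows, and 0.15 after Benjamini-Hochberg adjustment over 3 such ratios). The difference was 0.65 for this ratio, 0.63 for that to 1452363_a_at (exact p = 0.1) and 0.28 for that to 1427251_at (exact permutation p = 0.4). For the ratios to 1416551_at and 1452363_a_at every palmitate array lay above every BSA array, and for that to 1427251_at the groups overlapped. None could pass at 3 against 3, so the test cannot decide whether the probe sets differ in size. The sources used here do not say which transcript forms of Atp2a2 each of them reads.

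The pumps were also compared within each array. On the BSA arrays the log2 ratio of the Atp2a1 signal to that of Atp2a2 (each by its brightest probe set) was -1.16, -1.71 and -1.72, and on the palmitate arrays it was -2.63, -2.03 and -2.67. All palmitate ratios were below all BSA ratios. The difference was -0.91, with an exact permutation p = 0.1 (two-sided), the smallest possible, and 0.6 after adjustment over the 6 pairs of members compared, so it cannot pass in this design. It was -0.72 without BSA replicate 1 and -1.12 without palmitate replicate 2. Since each ratio comes from 1 array, it does not depend on the scaling. The other 5 pairs had exact permutation p-values of 0.3 to 0.8, one of them resting on Sln, which lay below the filter. With an offset of 64 added to the signals, the p of Cacng1 to Cacna1s (-0.23) and of Sln to Atp2a1 reached 0.1, and the latter turned from -0.22 to 0.30.

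**Figure D3:**
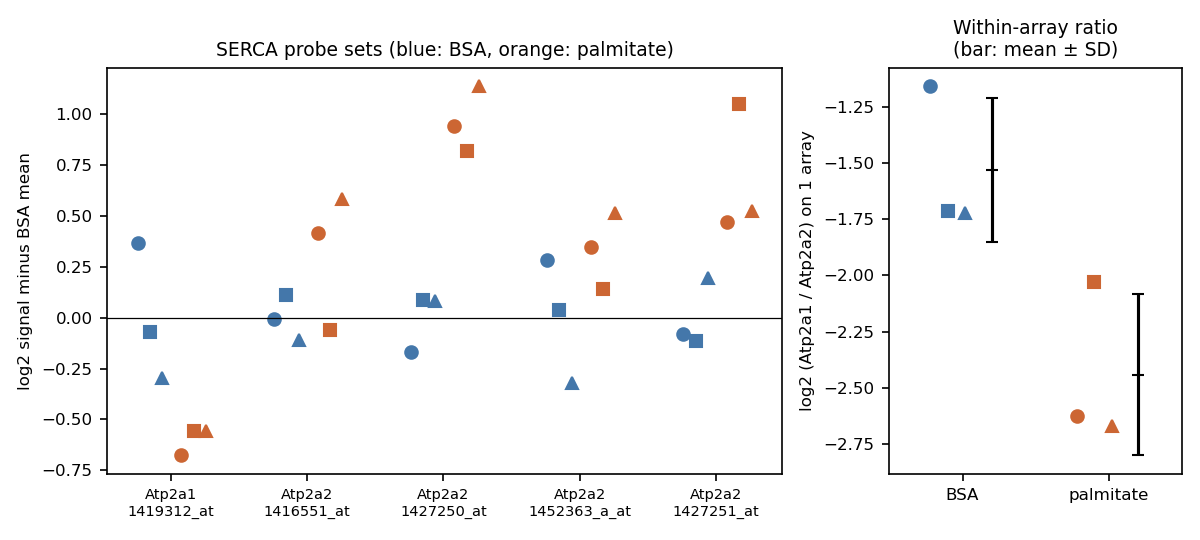
Left, log2 signal of each array minus the BSA mean of the same probe set, for the Atp2a1 probe set and the 4 probe sets of Atp2a2, with circles, squares and triangles for replicates 1, 2 and 3. Right, log2 ratio of Atp2a1 to Atp2a2 on each array with the mean ± SD, where the BSA arrays lie at -1.72 to -1.16 and the palmitate arrays at -2.67 to -2.03.

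How the arrays are scaled bears on these directions. For the 18 hybridisation control probe sets, which read RNAs spiked into every sample, the log2 signal averaged 12.55 ± 0.10 with BSA and 12.84 ± 0.11 with palmitate (SD, n = 3, exact permutation p = 0.1, two-sided, the smallest possible). Scaling the arrays to them lowered every log2 fold change by 0.30 and moved the median of all genes to -0.35. Atp2a1 then had a value of -0.89 (adjusted p = 0.00455), probe set 1427250_at of Atp2a2 kept its call at 0.67 (adjusted p = 0.00499), and the brightest Atp2a2 probe set was at 0.017. Ryr1, Cacna1s, Cacnb1 and Jph2 turned from above to below 0 there without passing. The part of the scaling in the results was not tested.

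A wider list of 74 calcium handling genes, without the members, was read beside them. On the array 55 had a probe set with a single symbol and 39 passed the filter. Of these 39, 3 rose and 5 fell, together 20.5%, against 20.2% of all genes, and the list median was -0.12. Among 7 tested calcium buffers of the reticulum and secretory pathway, the chaperone Calr (calreticulin) and the lectin chaperone Canx (calnexin) rose, and Rcn2 (a reticulocalbin) fell. That is 42.9% of a short list, against 20.2% of all genes, and the difference was not tested. Calr had signals of 21779.6, 20448 and 21291 with BSA and 29916, 33580 and 31976 with palmitate. All palmitate arrays of Calr were thus higher, at 0.59 ± 0.12 (adjusted p = 0.00422). The values were 0.58 ± 0.13 (adjusted p = 0.0112) for Canx and -0.60 ± 0.18 (adjusted p = 0.0354) for Rcn2.

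Among 10 tested genes of the voltage sensor and triad, Cav3 and Mtm1 fell and 0 rose, a share (20%) like the 20.2% of all genes. Cav3 encodes caveolin of the muscle membrane, which takes part in forming transverse tubules, and its signals were 3267, 2351 and 2096 with BSA and 1269.5, 1471 and 1536 with palmitate. The groups did not overlap (-0.83 ± 0.20, adjusted p = 0.0134). Mtm1, the lipid phosphatase myotubularin, was at -1.21 ± 0.31 (adjusted p = 0.0181). Trdn (triadin, which links Ryr1 to calsequestrin) at 0.37 ± 0.42 and Jph1, the other junctophilin of skeletal muscle, at 0.36 ± 0.30 did not pass.

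Of 5 tested release channels and partners, 1 fell and 0 rose, a share (20%) like the 20.2% of all genes. The gene that fell was S100a1, a calcium-binding protein that acts on Ryr1 and SERCA (-0.65 ± 0.19, adjusted p = 0.0331). Ryr3, the ryanodine receptor of immature muscle, had signals of 391.5, 717 and 439 with BSA and 382, 194 and 124 with palmitate. Its groups did not overlap, yet it did not pass (-1.25 ± 0.47, adjusted p = 0.0880). It passed with scaling to the hybridisation controls (-1.54, adjusted p = 0.0291) and without palmitate replicate 1 (-1.68, adjusted p = 0.0363). Of 10 tested calcium-responsive enzymes and their regulators, Rcan1, an inhibitor of calcineurin, rose (0.70 ± 0.22, adjusted p = 0.0404) and Ppp3ca, a catalytic subunit of calcineurin, fell (-0.62 ± 0.18, adjusted p = 0.0331). That share (20%) was also like the 20.2% of all genes. Of 3 tested genes each for other pumps and exchangers and for calcium entry or mitochondrial uptake, 0 passed by limma, against 20.2% of all genes. The unadjusted p was under 0.05 for 1 and 0 of them, and the store sensor Stim1 was at -0.55 ± 0.45 (adjusted p = 0.434). Pln (phospholamban, the SERCA inhibitor of the heart and slow fibres) lay below the filter.

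Leaving out 1 array ended none of the calls of Calr and Cav3. It ended those of Canx without palmitate replicate 3 (adjusted p = 0.0576), Mtm1 without BSA replicate 2 or palmitate replicate 3 (up to 0.0716), Rcn2 without BSA replicate 2 or 3 or palmitate replicate 2 or 3 (up to 0.138), Ppp3ca without BSA replicate 2 or 3 or palmitate replicate 1 or 2 (up to 0.124), S100a1 without any array but palmitate replicate 2 (up to 0.116) and Rcan1 without any array but BSA replicate 1 (up to 0.145). Scaling to the hybridisation controls ended the 3 rises (Calr 0.29, Canx 0.28 and Rcan1 0.40, adjusted p = 0.156 to 0.239), and 0 genes of the wider list rose and 14 fell there. Averaging probe sets ended the call of Mtm1 (-0.80, adjusted p = 0.0841). The other calls held there, with larger values for Rcan1 (1.24, adjusted p = 0.00353) and Canx (0.78, adjusted p = 0.00267). Median scaling ended the call of Ppp3ca (0.0513) and dropping the filter that of Rcan1 (0.0628). Without the intensity trend of the fit the calls of Canx, S100a1, Ppp3ca, Rcn2 and Rcan1 ended (adjusted p = 0.0537 to 0.0957).

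**Figure D4:**
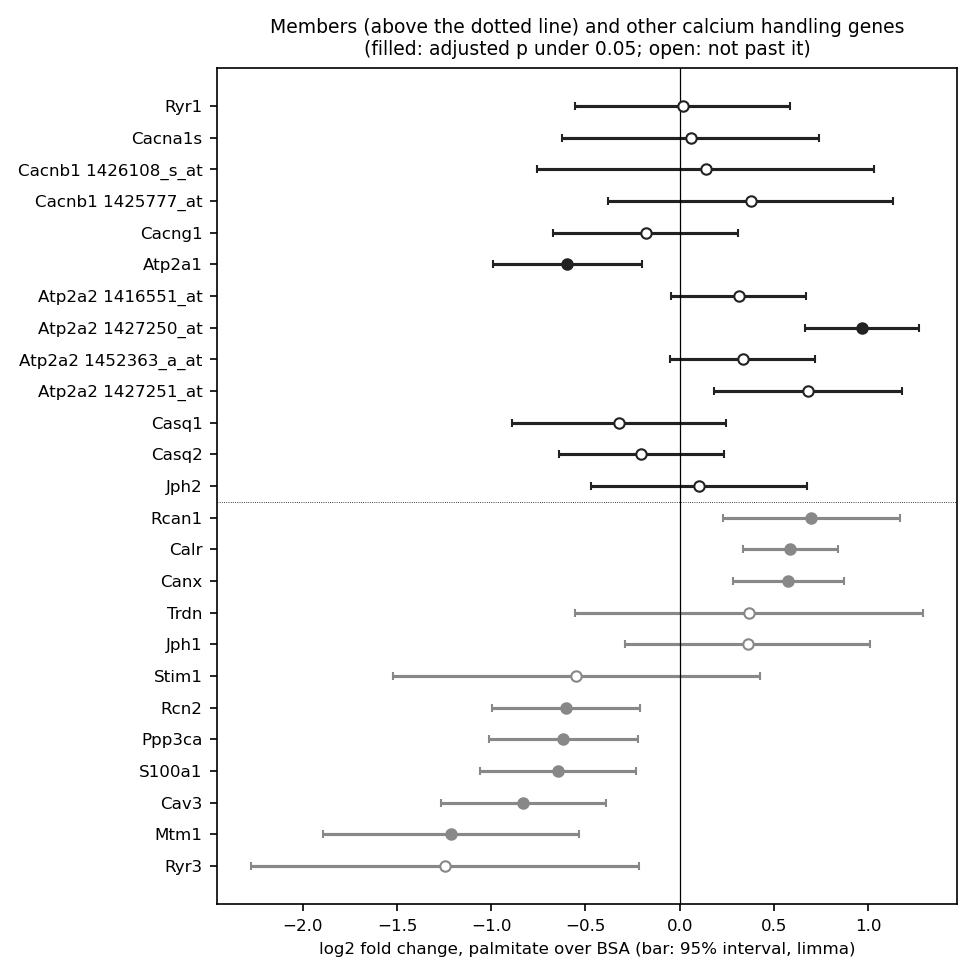
Log2 fold change, palmitate over BSA, with its 95% interval from limma (n = 3 per group), for the 13 member probe sets that passed the filter (black) and the named genes of the wider list (grey). Filled points passed an adjusted p of 0.05; among the members these are Atp2a1 at -0.60 and probe set 1427250_at of Atp2a2 at 0.97.

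Sarcomere genes, the other large muscle group, were read in the same way for comparison. Of 35 tested, 1 fell (Tpm2, a tropomyosin, at -0.76 ± 0.15, adjusted p = 0.00383) and 0 rose, which is 2.86% called, against 20.2% of all genes, with a median of -0.14, and the creatine kinase gene Ckm was at -0.33 ± 0.29 (adjusted p = 0.468). The call of Tpm2 ended with its probe sets averaged (-0.40, adjusted p = 0.103). Of 8 tested myogenic factors, 1 fell (12.5%, against 20.2% of all genes called). All 8 values were below 0, as were 4287 of all 7931 genes tested, and their median was -0.30, against -0.051 for all genes. Groups did not overlap for 4 of the 8, all lower with palmitate, as was so for 22.4% of all genes. The one that fell was Myod1, the MyoD gene, with signals of 5575, 4973.5 and 4579 with BSA and 1853, 2123 and 2041 with palmitate. The groups were far apart (-1.33 ± 0.16, adjusted p = 0.000139). The others without overlap were Six4 (-0.52 ± 0.17, adjusted p = 0.0515), Mef2c (-0.41 ± 0.16, adjusted p = 0.0876) and Mef2a (-0.36 ± 0.13, adjusted p = 0.0829), which did not pass, and Myog was at -0.019 ± 0.16 (adjusted p = 0.952). Whether the members differ from these lists was not tested.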

How the data were processed

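The deposited table holds 1 linear signal intensity for each probe set on each array. Per the submitters' processing notes, the tool was MAS 5, with settings not given in the sources used here. On each array a mean trimmed by 2% at either end came to between 1500.5 and 1500.56, so the deposited intensities had already been scaled. Detection calls, scan dates and depth were not used here.

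Probe sets were named from the platform annotation (20380 with 1 symbol, 691 with several, 1555 with none, of which only the first were named), and 0 symbols changed against RefSeq GRCm38.p6. Signals were log2 transformed without an offset, and the 13575 probe sets whose mean over the 6 arrays exceeded the 40th percentile were kept. A gene stood as its brightest probe set. Groups were compared by limma 3.58.1 in R 4.3.3 (lmFit, eBayes with an intensity trend, two-sided, Benjamini-Hochberg over the 13575). The fit was run on simulated data with independent noise, without differences shared across an array. That run therefore does not bear on BSA replicate 1 or on the scaling. Within-array ratios were compared by exact permutation tests, whose smallest p is 0.1 here.

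The members and the lists were chosen with earlier results of these data known. Named were all members, the up to 8 largest rises and 8 largest falls of the wider list among genes past the threshold with groups that do not overlap, and Ryr3, Stac3, Trdn, Jph1, Pln, Calr, Stim1, Myog and Ckm where measured (Stac3 was not analysed here). Acta1, Vcam1, Tpm2, Myod1, Six4, Mef2c, Mef2a, Atp2a3 and Nppb were named after their values were seen. Alternatives were 3 other scalings (quantile, median, hybridisation controls), no filter, an offset of 64, averaged probe sets, no trend, the replicate number as a block, and leaving out each array.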

Additional observations from a re-analysis of the deposited data

How the results depend on the processing

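Probe set 1427250_at of Atp2a2 passed under every alternative run on probe sets, at 0.67 to 1.04, as did Cav3 and Myod1 under every one. Other results moved. The 1 member called became 0 with arrays scaled to equal median (Atp2a1 -0.57, adjusted p = 0.0606), without the intensity trend (-0.60, adjusted p = 0.0915) and with the replicate block, and 2 with averaged probe sets (Atp2a2 0.57). Leaving out 1 array gave 0 to 1 members called and 1579 to 2315 probe sets (2609 with all; 1579 without BSA replicate 2), 3 to 8 genes of the wider list (3 without BSA replicate 2 or palmitate replicate 3, 5 without BSA replicate 3) and 1 to 2 sarcomere genes. Without palmitate replicate 2 the 1 member called was Atp2a2. The 8 wider genes became 14 with hybridisation control scaling and 4 without the trend. Sarcomere calls went from 1 to 7 and myogenic factor calls from 1 to 4 with hybridisation control scaling, and to 0 and 3 with averaged probe sets. That scaling left 3479 probe sets called, 475 higher and 3004 lower, against 1172 and 1437.

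Single-array omissions spanned -0.74 to -0.41 for Atp2a1, 0.18 to 0.50 for Atp2a2, -0.24 to 0.31 for Ryr1, -0.20 to 0.44 for Cacna1s, -0.27 to 0.64 for Cacnb1, -0.40 to 0.12 for Cacng1, -0.38 to 0.0019 for Casq2, -0.077 to 0.25 for Jph2, -0.18 to 0.16 for Myog, -0.52 to 0.014 for Ckm and -0.0087 to 0.86 for Trdn. Hybridisation control scaling turned Ryr1 (-0.28), Cacna1s (-0.24), Cacnb1 (-0.16) and Jph2 (-0.19), and median scaling turned Myog (0.0073); none of these passed. The causes were not tested.

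Same-numbered samples did not deviate together (correlations of -0.23, -0.13 and 0.0091). With so few arrays these values cannot decide whether the numbers pair the samples. With the replicate block 0 members, 4 wider genes and 1973 probe sets passed, with Atp2a1 at -0.60 (adjusted p = 0.0725), and the calls of S100a1, Ppp3ca, Rcn2 and Rcan1 ended (adjusted p = 0.0610 to 0.0780). With 3 arrays a group, the intervals of the members tested (brightest probe sets) reached about 1.5-fold or further, either up, down or both. The lowest end was 0.503 (Atp2a1) and the highest 2.04 (Cacnb1). The intervals of Cacna1s and Cacnb1 passed 1.5-fold both ways. Below the filter no size can be read.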

Other observations

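Atp2a3, the SERCA3 gene of the same pump family, known from blood cells and epithelia, was dim, with signals of 336, 159 and 151 with BSA and 445, 453 and 424 with palmitate. All palmitate arrays were above all BSA arrays, and the value did not pass (log2 fold change 1.14 ± 0.43, limma adjusted p = 0.0885); it passed without BSA replicate 1 (1.51, adjusted p = 0.0435) and without the intensity trend (adjusted p = 0.0460). Nppb, which encodes a natriuretic peptide known from the heart, was 1.28 ± 0.41 higher with palmitate (adjusted p = 0.0469), with signals of 386, 186 and 474 against 1106, 904 and 491.5. Its call ended without BSA replicate 1, BSA replicate 2, palmitate replicate 1 or palmitate replicate 2 (adjusted p up to 0.165), with hybridisation control scaling (0.99, adjusted p = 0.106), without the filter (adjusted p = 0.0936) and without the trend (adjusted p = 0.0785). Of the other 6 cardiac markers on the array, 5 lay below the filter, and Gata4 was not called. Whether markers of other cells bear on these values was not tested.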
